A study of Mus musculus with 20 samples.

Results

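Mouse cortical neurons were kept for 10 min without oxygen and glucose (oxygen-glucose deprivation, OGD, used in culture as a stand-in for stroke), and their RNA was set against that of control cultures. These were 8 of the 20 arrays of a time course: 3 arrays after 10 min of OGD and 5 control arrays, chosen by the time point in the sample labels. In both groups the cells were primary cortical neurons of fetal Swiss albino mice, taken at gestational day 15 or 16 and in day 7 of culture. The oxygen pressure during OGD was below 50 mm Hg, while the controls are labelled with no agent. The labels name neither the number of animals behind a culture nor whether each replicate was a culture of its own. The p-values here therefore measure a spread between arrays only, and that spread may be technical. It was estimated over all 20 arrays of the time course, not over these 8 alone. Total RNA, as biotin-labelled copies, was read on Illumina MouseRef-8 v1.1 bead arrays, on which each probe reports 1 transcript by its brightness. Every level below is the log2 of the background-corrected and quantile-normalized signal of a probe, and every difference is that of 10 min minus control on this scale, where 1 stands for a 2-fold change.

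Neurons deprived of oxygen and glucose lose ATP quickly, release glutamate and depolarise, and transcription factors of the Fos, Egr and Nr4a families are the textbook early response to such calcium signals. Slower programmes follow through HIF, which is stabilised when oxygen is scarce and drives glucose uptake and glycolysis, and through ATF4, which is translated when amino acids are short or proteins misfold and drives amino acid uptake and synthesis. Cortical cultures of this kind hold neurons with some astrocytes and other glia, so a bulk measurement also reads the makeup of the culture, and fewer cells of a type cannot be told apart from less RNA per cell.

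The cell type markers fitted the label of the cultures in part. Of 7 neuronal markers on the array, 5 (Stmn2, Syp, Syt1, Map2 and Tubb3) were detected on all 8 arrays, whereas the probes of Snap25 and Nefl were detected on none. The astrocyte markers Gja1, Slc1a3, Aqp4 and Gfap were also detected on all 8 arrays. Of 8 microglial markers none was detected on all arrays of either group, and of 6 endothelial markers only Esam was detected, on 3 controls. Between 37.9% and 39.5% of the probes were detected at 10 min and between 38.4% and 40.9% in the controls, and median raw signals were 59.9 to 65.4 at 10 min and 57.1 to 62.5 in the controls. The 3 arrays at 10 min lay on 1 slide together with control replicate 1. Controls 4 and 5 shared another slide, and controls 2 and 3 a different one again.

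Control replicate 2 stood apart from the other controls. On the first principal component of the 8 arrays, which held 58.5% of the variance, the 10 min arrays lay at 19.6, 20.1 and 22.4, control replicate 2 at 15.5 and the other controls at -23.8 to -14.3. Control replicate 3, on the same slide as replicate 2, lay at -22.8. The second component, with 17.3% of the variance, set control replicate 1 at 23.5 apart from the other 7 arrays, at -10.8 to 6.7. Values are with all 5 controls unless stated. The counts of most lists and most genes described array by array are also given without control replicate 2, and a named gene that did not pass against control replicate 1, the only control on the slide of the 10 min arrays, is named as such. The controls are numbered by the array position in their sample descriptions, while the authors' processed tables place the 5 control arrays under other control labels.

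**Figure D1:**
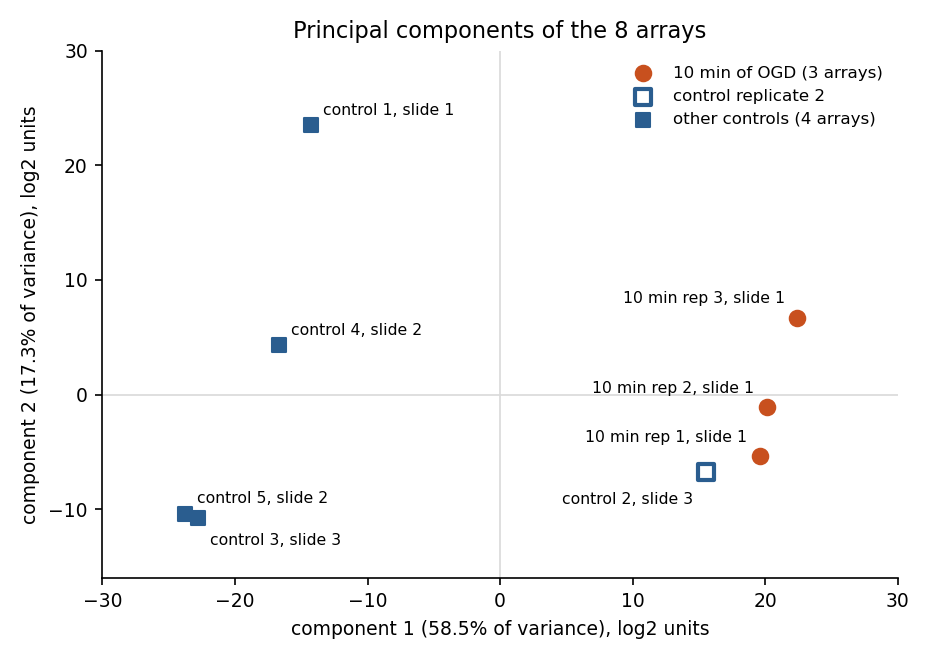
Principal components of the 8 arrays over the 10447 tested probes, with component 1 (58.5% of the variance) across and component 2 (17.3%) up, both in log2 units. Circles are the 3 arrays at 10 min, the open square is control replicate 2 and filled squares are the other 4 controls, and control replicate 2, at 15.5 on component 1, lies beside the 10 min arrays.

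After 10 min of OGD, 1153 of 10447 probes were higher and 981 lower than in the controls (limma, Benjamini-Hochberg adjusted p under 0.05, the threshold for every gene said to pass, rise or fall), which is 11% and 9.39% of the probes, or 20.4% in either direction. They stand for 963 genes higher and 800 lower in at least 1 probe. At least 2-fold differences were rare, at 76 probes higher and 40 lower (0.727% and 0.383%). The 10 min arrays lay wholly outside the range of the 5 controls on 1812 probes (17.3%), of which 751 that passed were higher (7.19%) and 562 lower (5.38%). Outside the range of the 4 controls other than replicate 2 they lay on 3905 probes (37.4%). Without control replicate 2 the counts were 1854 higher and 1678 lower (17.7% and 16.1%, or 33.8% together), with 143 and 95 of them at least 2-fold (1.37% and 0.909%). Of the 2134 probes called with all 5 controls, 2123 were called in the same direction without replicate 2, which is 99.5% of the first set and 60.1% of the second. Against control replicate 1 alone, on the same slide, 930 probes were higher and 982 lower (8.9% and 9.4%), with the spread taken from the other groups. In all 3 comparisons 626 probes (5.99%) were higher and 538 (5.15%) lower. The authors' normalized values gave a more one-sided split, with 1230 probes higher and 554 lower.

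Control replicate 2 differed from the other controls in the direction of the 10 min arrays for most of these genes. On 1663 of the 2134 called probes (77.9%) it lay beyond the other 4 controls on the side of the 10 min arrays, on 39 (1.83%) beyond them on the other side, and on 432 among them. Where the mean of the other 4 controls is set at 0 and the mean of the 10 min arrays at 1, its median position over the called probes was 0.70. Arrays of a group differed by an SD whose median over probes was 0.106 at 10 min, 0.196 over the 5 controls and 0.161 over the 4 controls without replicate 2. What set this array apart was not tested.

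The leading rise was in Bdh2, which encodes a cytosolic hydroxybutyrate dehydrogenase. Bdh2 had levels of 9.67, 9.63 and 9.82 at 10 min, against 7.57, 9.21, 6.49, 7.61 and 6.21 in control replicates 1 to 5. The groups did not overlap, and control replicate 2 came closest to the 10 min arrays. The difference of Bdh2 was 2.29 ± 0.41 (SE, adjusted p = 0.00119), and 2.73 ± 0.26 without control replicate 2 (adjusted p = 3e-07). Rnase1 encodes a secreted ribonuclease. Rnase1 read 8.11, 7.94 and 8.46 on the arrays at 10 min and 6.55, 7.38, 5.68, 6.51 and 5.27 on controls 1 to 5. Rnase1 thus differed by 1.90 ± 0.32 (adjusted p = 0.0008), or by 2.17 ± 0.26 without control replicate 2 (adjusted p = 5.52e-06). The chemokine gene Ccl9 was detected on all 3 arrays at 10 min and on 1 control. Levels of Ccl9 were 6.44, 6.75 and 6.53 at 10 min and 4.43, 6.02, 4.42, 4.40 and 4.47 in controls 1 to 5. That control was replicate 2, and the other 4 controls lay within 0.07 of each other. For Ccl9 this gave 1.82 ± 0.26 (adjusted p = 0.000237) with all controls and 2.14 ± 0.11 (adjusted p = 8.3e-11) without replicate 2. Acta2, smooth muscle actin, was high throughout. Acta2 stood at 11.10, 10.85 and 11.11 after 10 min of OGD, against 9.16, 10.08, 9.07, 8.94 and 8.92 in controls 1 to 5. The difference of Acta2 was 1.79 ± 0.20 (SE, adjusted p = 5.1e-05), and 2.0 ± 0.14 without control replicate 2 (adjusted p = 5.58e-09). Its other probes differed by 1.19 and 0.96. Pvalb, the calcium-binding parvalbumin of fast-spiking interneurons, and Plin4, a lipid droplet coat protein, followed the same pattern. Pvalb had levels of 6.98, 6.95 and 7.32 at 10 min, against 5.29, 6.60, 4.81, 5.34 and 4.75 in control replicates 1 to 5. Plin4 read 6.79, 6.63 and 7.13 on the arrays at 10 min and 4.89, 6.47, 4.78, 5.03 and 4.78 on controls 1 to 5. In both, the 3 arrays at 10 min lay above all controls and control replicate 2 lay between them and the rest. Pvalb was detected on 2 controls and Plin4 on 1. Pvalb thus differed by 1.72 ± 0.28 (adjusted p = 0.000563), or by 2.03 ± 0.16 without control replicate 2 (adjusted p = 3.52e-08). For Plin4 this gave 1.66 ± 0.27 (adjusted p = 0.000635) with all controls and 1.98 ± 0.14 (adjusted p = 6.74e-09) without replicate 2.

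Other leading rises held the same order of arrays, with 1 exception. Gstt3, a glutathione transferase gene (1.64 ± 0.26, adjusted p = 0.000465), Cox8b, a cytochrome oxidase subunit gene typical of muscle (1.62 ± 0.18, adjusted p = 3.15e-05), and Prelp, a leucine-rich matrix proteoglycan gene (1.57 ± 0.24, adjusted p = 0.000416), rose. So did Wdr78, a dynein intermediate chain gene of cilia (1.44 ± 0.19, adjusted p = 0.000139), Dynlrb2, a dynein light chain gene (1.29 ± 0.19, adjusted p = 0.000272), Rassf4 (1.34 ± 0.23, adjusted p = 0.000967, with its other probe at 0.47), Cyp2d22, a cytochrome P450 gene (1.32 ± 0.23, adjusted p = 0.000867), Cryab, the small heat shock protein alpha B-crystallin (1.26 ± 0.21, adjusted p = 0.000673), Thrsp, a regulator of fatty acid synthesis (1.24 ± 0.23, adjusted p = 0.00172), and Capg, an actin-capping protein gene (1.24 ± 0.20, adjusted p = 0.000589). Capg was detected on 1 control and Rassf4 on 3 controls. Rit2, a small GTPase of neurons, rose by 1.24 ± 0.21 (adjusted p = 0.000947) and Renbp, a renin-binding protein gene, by 1.24 ± 0.23 (adjusted p = 0.00147). Cyp4f14, another cytochrome P450 gene, was detected on all 3 arrays at 10 min and on no control, and lay higher by at least 1.57-fold (adjusted p = 7.73e-05, and 3.02e-08 without control replicate 2). Ttr, the thyroxine carrier transthyretin of the choroid plexus, was the exception. Levels of Ttr were 8.99, 9.0 and 9.62 at 10 min and 7.98, 7.12, 8.58, 7.85 and 8.23 in controls 1 to 5. Here control replicate 2 was the lowest of all 8 arrays, away from the 10 min arrays. The difference of Ttr was 1.25 ± 0.25 (SE, adjusted p = 0.00267), and 1.04 ± 0.21 without control replicate 2 (adjusted p = 0.000964). Each rise named in this paragraph also passed against control replicate 1 alone (adjusted p = 1.62e-06 to 0.0134).

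The leading fall was in Pop4, a subunit of ribonuclease P. Pop4 stood at 4.56, 4.53 and 4.53 after 10 min of OGD, against 10.43, 10.13, 10.34, 10.21 and 10.31 in controls 1 to 5. Its probe was detected on all 5 controls, replicate 2 included, and on no 10 min array, and the gene was at least 29.6-fold lower (adjusted p = 0.00722, and 0.00466 without control replicate 2). Against control replicate 1 alone it did not pass (adjusted p = 0.101), although that array, at 10.43, was the highest control. The SE of the fit was 2.40 against that array and 1.36 with all controls, from a spread that includes the later times of OGD. The SD of the Pop4 levels was only 0.02 at 10 min and 0.12 in the 5 controls. C2cd4a, which encodes a C2 domain protein, fell. C2cd4a had levels of 6.82, 7.0 and 6.89 at 10 min, against 9.07, 7.24, 9.0, 8.95 and 8.64 in control replicates 1 to 5. All controls lay above the 10 min arrays, replicate 2 by the least. C2cd4a thus differed by -1.68 ± 0.27 (adjusted p = 0.000635), or by -2.01 ± 0.12 without control replicate 2 (adjusted p = 1.15e-09). Dgkk, a diacylglycerol kinase gene (-1.20 ± 0.17, adjusted p = 0.000278), Lor, loricrin (-1.08 ± 0.19, adjusted p = 0.000991), Dcn, the matrix proteoglycan decorin (-1.51 ± 0.28, adjusted p = 0.00153), and Epha8, an ephrin receptor gene (-1.40 ± 0.23, adjusted p = 0.000635), fell as well. Cox6a2, like Cox8b a cytochrome oxidase subunit gene typical of muscle, moved opposite to it. Cox6a2 read 6.57, 6.59 and 6.63 on the arrays at 10 min and 8.51, 6.76, 8.30, 7.99 and 8.20 on controls 1 to 5. For Cox6a2 this gave -1.35 ± 0.24 (adjusted p = 0.0012) with all controls and -1.65 ± 0.11 (adjusted p = 2.23e-09) without replicate 2. Both were detected on all 10 min arrays, and Cox8b on 3 of 5 controls.

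**Figure D2:**
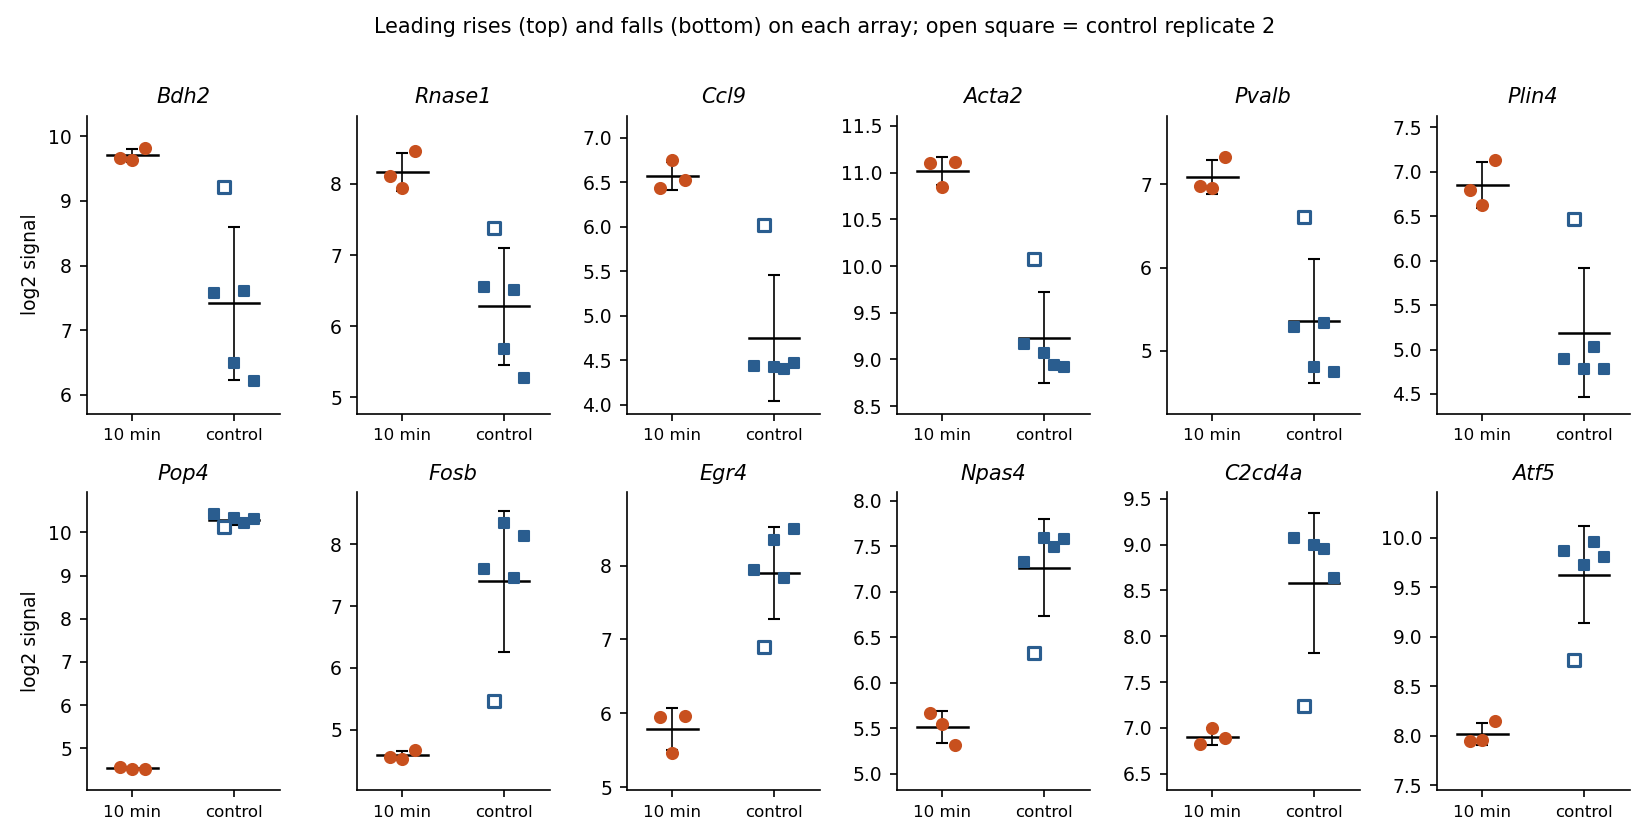
Log2 signal of 6 leading rises (top row) and 6 leading falls (bottom row), with the 3 arrays at 10 min on the left of each panel and the 5 controls on the right. Bars give the mean and SD, and the open square is control replicate 2, which lies between the other controls and the 10 min arrays in every panel, in that of Pop4 at 10.13 beside the other controls at 10.21 to 10.43.

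Among activity-induced genes, AP-1 and Npas4 transcripts were lower at 10 min, while several other early genes did not pass. Of 7 AP-1 genes tested 5 fell and 0 rose, with a median difference of -0.52, against 927 higher and 745 lower of 7721 named genes by their brightest probe, with a median of 0.00. The same counts over all named genes were 1476 and 1251 without control replicate 2, again with a median of 0.00. Fosb, a Fos family partner of Jun proteins, was detected on all 5 controls and on no 10 min array. Levels of Fosb were 4.56, 4.52 and 4.67 at 10 min and 7.60, 5.46, 8.34, 7.46 and 8.14 in controls 1 to 5. The gene was at least 4.01-fold lower (adjusted p = 0.000208, and 8.3e-11 without control replicate 2). Fos and Junb fell too. Fos stood at 8.05, 8.08 and 7.83 after 10 min of OGD, against 9.27, 8.48, 9.73, 9.72 and 9.57 in controls 1 to 5. Junb had levels of 5.62, 5.74 and 5.94 at 10 min, against 7.08, 6.51, 7.62, 7.05 and 7.68 in control replicates 1 to 5. No 10 min array reached the lowest control in either gene, and that control was replicate 2. The difference of Fos was -1.37 ± 0.22 (SE, adjusted p = 0.000635), and -1.58 ± 0.16 without control replicate 2 (adjusted p = 8.58e-07). Junb thus differed by -1.42 ± 0.19 (adjusted p = 0.000139), or by -1.59 ± 0.15 without control replicate 2 (adjusted p = 3.1e-07). Fosl2 fell with a difference of -0.52 ± 0.11 (adjusted p = 0.0045), and here the lowest control was replicate 1 at 8.94, against which alone the gene did not pass (adjusted p = 0.451). Without control replicate 2 the list had 5 genes lower and 1 higher, with a median of -0.51.

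Of 12 other activity-induced regulators 7 fell and 0 rose (median -0.50), and 9 fell without control replicate 2 (median -0.63). Egr4, a zinc finger regulator, and Npas4, a neuronal factor induced by calcium entry, fell. Egr4 read 5.95, 5.46 and 5.96 on the arrays at 10 min and 7.94, 6.90, 8.34, 7.83 and 8.49 on controls 1 to 5. Levels of Npas4 were 5.67, 5.55 and 5.32 at 10 min and 7.33, 6.33, 7.59, 7.49 and 7.58 in controls 1 to 5. The 10 min arrays lay below all controls in both, and Npas4 was detected on 2 of the 3. For Egr4 this gave -2.11 ± 0.28 (adjusted p = 0.000139) with all controls and -2.36 ± 0.22 (adjusted p = 3.7e-07) without replicate 2. The difference of Npas4 was -1.75 ± 0.21 (SE, adjusted p = 7e-05), and -1.98 ± 0.12 without control replicate 2 (adjusted p = 1.39e-09). Nr4a2, an orphan nuclear receptor gene (-1.0 ± 0.20, adjusted p = 0.00267), and Csrnp1, a serine-rich nuclear protein gene (-1.10 ± 0.24, adjusted p = 0.00492), fell, and Klf4, a zinc finger factor gene, was detected on 3 controls and on no 10 min array and lay lower by at least 1.09-fold (adjusted p = 0.00271, and 0.000998 without control replicate 2). Egr1 did not pass and its groups overlapped. Egr1 stood at 9.40, 9.32 and 9.69 after 10 min of OGD, against 9.92, 9.41, 9.27, 9.76 and 9.55 in controls 1 to 5. Egr1 thus differed by -0.11 ± 0.17 (adjusted p = 0.686), or by -0.15 ± 0.18 without control replicate 2 (adjusted p = 0.55). Egr2 had levels of 5.19, 4.94 and 5.08 at 10 min, against 5.50, 5.0, 5.87, 5.73 and 5.72 in control replicates 1 to 5. Egr2, detected on 4 controls and no 10 min array, passed only without control replicate 2 (adjusted p = 0.00358 without it and 0.0572 with all controls). Egr2 did not pass against control replicate 1 alone (adjusted p = 0.232). Nr4a1 was below the detection filter and was not tested.

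Of 13 activity-induced effectors 6 fell and 1 rose (median -0.31), and 7 and 1 without control replicate 2 (median -0.40). Nptx2, a synaptic pentraxin that binds AMPA receptors, and Scg2, a secretogranin of dense-core vesicles, fell. Nptx2 read 5.60, 5.48 and 5.54 on the arrays at 10 min and 6.97, 6.12, 7.13, 7.13 and 6.83 on controls 1 to 5. Levels of Scg2 were 8.64, 8.46 and 8.30 at 10 min and 9.43, 9.42, 9.46, 9.98 and 9.36 in controls 1 to 5. In Scg2 control replicate 2, at 9.42, lay among the other controls, and the groups were apart on either choice of controls. For Nptx2 this gave -1.30 ± 0.16 (adjusted p = 9.54e-05) with all controls and -1.47 ± 0.10 (adjusted p = 4.55e-09) without replicate 2. The difference of Scg2 was -1.06 ± 0.17 (SE, adjusted p = 0.000444), and -1.09 ± 0.17 without control replicate 2 (adjusted p = 9.78e-05). Nrn1, the secreted neuritin, fell with a difference of -0.81 ± 0.18 (adjusted p = 0.00491), but did not pass against control replicate 1 alone (-0.30 ± 0.16, adjusted p = 0.208). Bdnf stood at 4.49, 4.35 and 4.39 after 10 min of OGD, against 4.92, 4.46, 5.61, 5.28 and 5.44 in controls 1 to 5. Bdnf, the neurotrophin, was detected on 3 controls and on no 10 min array (adjusted p = 0.0148, and 0.000297 without control replicate 2), and did not pass against control replicate 1 alone (adjusted p = 0.117). Ccn2, a secreted matrix protein, rose with a difference of 0.84 ± 0.22 (adjusted p = 0.0128). Arc, a regulator of AMPA receptor traffic, did not pass. Arc had levels of 5.73, 5.76 and 5.81 at 10 min, against 5.95, 5.93, 5.61, 6.14 and 5.74 in control replicates 1 to 5. Arc thus differed by -0.11 ± 0.12 (adjusted p = 0.548), or by -0.10 ± 0.13 without control replicate 2 (adjusted p = 0.597). Neither did the phosphatase genes Dusp1 and Dusp6, which switch off MAP kinases, at -0.08 ± 0.11 (adjusted p = 0.63) and -0.28 ± 0.14 (adjusted p = 0.156). Dusp1 read 10.18, 10.07 and 9.91 on the arrays at 10 min and 10.00, 10.18, 10.24, 10.18 and 10.09 on controls 1 to 5. Levels of Dusp6 were 8.18, 8.26 and 8.45 at 10 min and 8.18, 8.87, 8.60, 8.71 and 8.53 in controls 1 to 5. The groups of both genes overlapped. Of the 15 MAP kinase and feedback genes 3 fell and 1 rose (median -0.21; 5 and 1 without control replicate 2): Dusp4 (-0.45 ± 0.09, adjusted p = 0.00265), Dusp14 (-0.53 ± 0.14, adjusted p = 0.014) and Mapk8, a Jun kinase gene (-0.41 ± 0.14, adjusted p = 0.0452), fell, and Dusp16 (0.34 ± 0.11, adjusted p = 0.0279) rose. None of these 4 passed against control replicate 1 alone, where Dusp4 stood at -0.25 ± 0.12, adjusted p = 0.168, Dusp14 at -0.14 ± 0.16, adjusted p = 0.613 and Mapk8 at -0.18 ± 0.21, adjusted p = 0.595, all nearer to 0, and Dusp16 at 0.42 ± 0.16, adjusted p = 0.0793, farther from it.

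**Figure D3:**
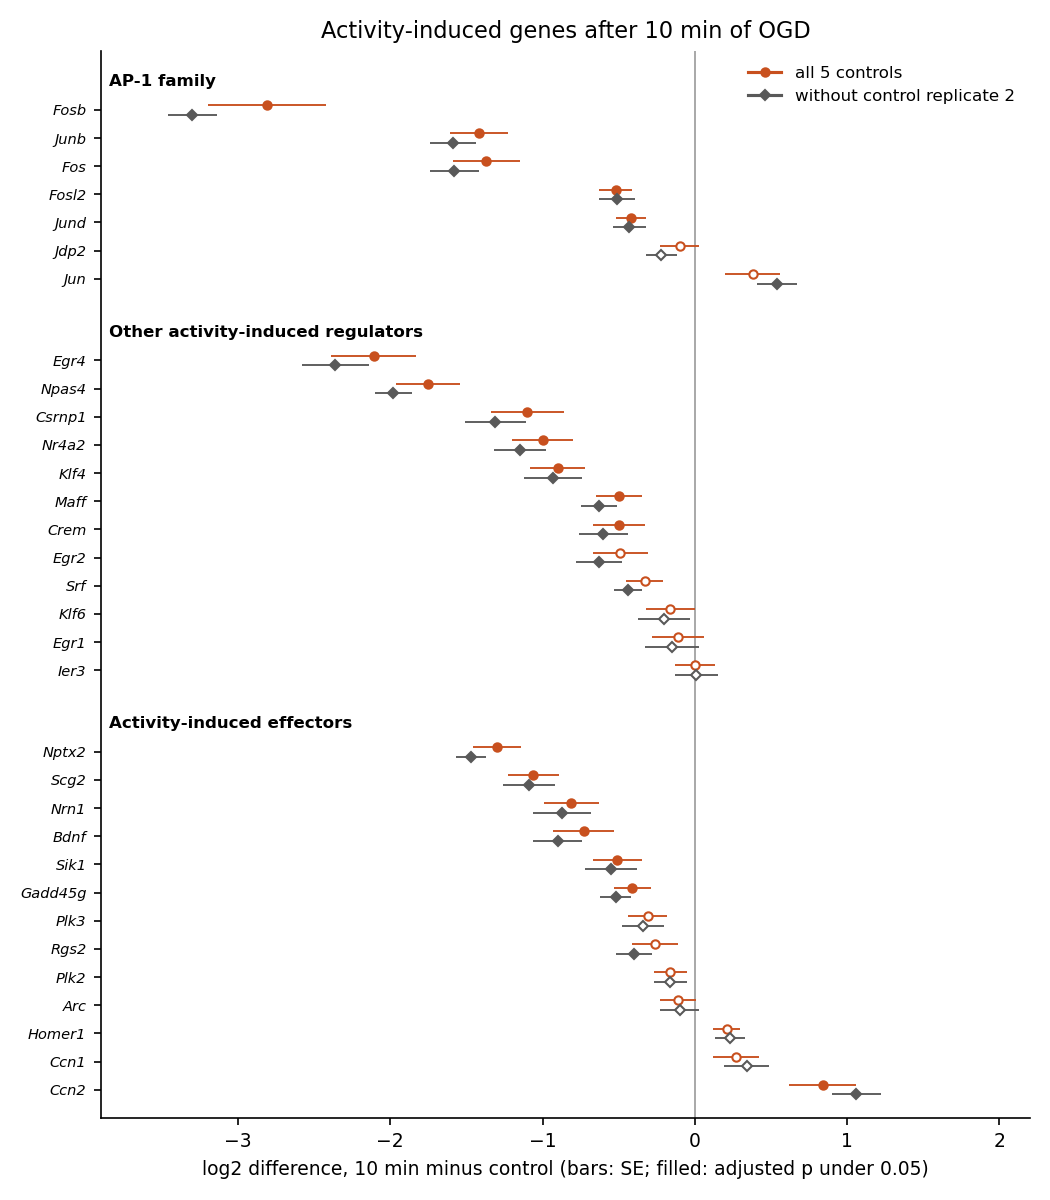
Log2 difference of 10 min minus control for the tested AP-1, other activity-induced and effector genes, with all 5 controls (circles) and without control replicate 2 (diamonds). Bars are SE and filled symbols passed at an adjusted p under 0.05. Fosb, Klf4, Bdnf and Egr2 were detected on no 10 min array, so that their drawn differences are no measure of size, and Egr1 and Arc, at -0.11 each, did not pass on either choice of controls.

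Genes of the ATF4 amino acid response were lower at 10 min, and control replicate 2 lay close to the 10 min arrays in most of them. Of 15 regulators of this branch 10 fell and 1 rose, with a median of -0.58, and the counts without control replicate 2 were the same, with a median of -0.67. On the 11 called members the median position of control replicate 2 was 0.88 of the way from the other controls to the 10 min arrays. Atf4 itself, the transcription factor that gives the branch its name, overlapped between the groups. Atf4 stood at 9.43, 9.52 and 9.45 after 10 min of OGD, against 11.07, 9.22, 10.88, 10.89 and 10.91 in controls 1 to 5. The lowest of the 8 arrays was control replicate 2, below the 10 min arrays. For Atf4 this gave -1.13 ± 0.27 (adjusted p = 0.00797) with all controls and -1.47 ± 0.10 (adjusted p = 4.28e-09) without replicate 2. Atf5, a related factor, did not overlap. Atf5 had levels of 7.95, 7.96 and 8.15 at 10 min, against 9.87, 8.77, 9.73, 9.96 and 9.81 in control replicates 1 to 5. The difference of Atf5 was -1.61 ± 0.19 (SE, adjusted p = 6.67e-05), and -1.82 ± 0.11 without control replicate 2 (adjusted p = 9.06e-10). Nupr1, a small stress-induced chromatin protein, was detected on 4 controls, not on replicate 2 nor on any 10 min array, and lay lower by at least 3.14-fold (adjusted p = 0.00107, and 1.58e-11 without control replicate 2). Chac1, which degrades glutathione, Ppp1r15a, which returns the phosphatase to eIF2, and Eif4ebp1, which holds back cap-dependent translation, fell. Chac1 thus differed by -1.25 ± 0.24 (adjusted p = 0.00172), or by -1.53 ± 0.12 without control replicate 2 (adjusted p = 2.23e-08). For Ppp1r15a this gave -0.90 ± 0.18 (adjusted p = 0.00264) with all controls and -1.09 ± 0.12 (adjusted p = 1.82e-06) without replicate 2. The difference of Eif4ebp1 was -1.13 ± 0.24 (SE, adjusted p = 0.00402), and -1.41 ± 0.14 without control replicate 2 (adjusted p = 6.45e-07). Ddit3 read 7.32, 7.23 and 7.19 on the arrays at 10 min and 7.96, 7.33, 7.94, 7.64 and 8.10 on controls 1 to 5. Ddit3, the CHOP factor, fell with a difference of -0.55 ± 0.13 (adjusted p = 0.00894). Levels of Trib3 were 4.70, 4.98 and 4.97 at 10 min and 6.21, 4.66, 5.64, 5.81 and 5.68 in controls 1 to 5. Again the lowest array was control replicate 2. Trib3, a pseudokinase gene, was detected on 4 controls and on no 10 min array and lay lower by at least 1.15-fold (adjusted p = 0.0483, and 0.000903 without control replicate 2).

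Of 9 genes of asparagine, serine and one-carbon synthesis 6 fell and 0 rose (median -0.66), the same counts as without control replicate 2 (median -0.79). Asns makes asparagine and Mthfd2 is a folate enzyme of mitochondria. Asns stood at 9.30, 9.42 and 9.61 after 10 min of OGD, against 10.95, 9.62, 10.92, 10.91 and 11.01 in controls 1 to 5. Mthfd2 had levels of 8.44, 8.38 and 8.28 at 10 min, against 10.14, 8.22, 10.06, 9.77 and 10.03 in control replicates 1 to 5. Asns was lower on every 10 min array than on any control, by the least against replicate 2, while replicate 2 fell below the 10 min arrays in Mthfd2. Asns thus differed by -1.24 ± 0.22 (adjusted p = 0.00099), or by -1.51 ± 0.09 without control replicate 2 (adjusted p = 1.86e-09). For Mthfd2 this gave -1.27 ± 0.28 (adjusted p = 0.00491) with all controls and -1.63 ± 0.11 (adjusted p = 5.29e-09) without replicate 2. A second Asns probe, of lower signal, passed only without control replicate 2 (-0.69, adjusted p = 0.0712 with all controls and 0.0014 without it). That probe stood at -0.19 against control replicate 1 alone (adjusted p = 0.557). The folate enzyme genes Mthfd1l (-0.95 ± 0.15, adjusted p = 0.000593) and Shmt2 (-0.91 ± 0.20, adjusted p = 0.00499) and the serine synthesis gene Psat1 (-0.66 ± 0.13, adjusted p = 0.00235) fell.

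Of 14 amino acid transporter genes 7 fell and 0 rose (median -0.32; -0.34 without control replicate 2, with 7 lower and 1 higher). Slc7a5 and Slc3a2 encode the 2 chains of a carrier of large neutral amino acids, and Slc7a3 a carrier of cationic ones. Slc7a5 read 10.26, 10.21 and 10.25 on the arrays at 10 min and 11.88, 10.83, 11.97, 12.01 and 11.98 on controls 1 to 5. Levels of Slc7a3 were 9.0, 9.12 and 9.08 at 10 min and 10.55, 9.68, 10.57, 10.72 and 10.60 in controls 1 to 5. Slc3a2 stood at 6.13, 6.01 and 6.61 after 10 min of OGD, against 7.80, 6.77, 7.26, 7.60 and 7.22 in controls 1 to 5. In each of these genes the 10 min arrays lay below all 5 controls. The difference of Slc7a5 was -1.49 ± 0.18 (SE, adjusted p = 9.14e-05), and -1.72 ± 0.08 without control replicate 2 (adjusted p = 5.16e-11). Slc7a3 thus differed by -1.35 ± 0.16 (adjusted p = 7.73e-05), or by -1.54 ± 0.09 without control replicate 2 (adjusted p = 1.08e-09). For Slc3a2 this gave -1.08 ± 0.21 (adjusted p = 0.00235) with all controls and -1.22 ± 0.20 (adjusted p = 0.000122) without replicate 2. The glycine carrier Slc6a9 (-0.67 ± 0.16, adjusted p = 0.00673), the neutral amino acid carrier Slc1a4 (-0.58 ± 0.16, adjusted p = 0.0181) and the cystine carrier Slc7a11 (-0.46 ± 0.14, adjusted p = 0.0255) fell. Slc7a11 had levels of 5.78, 5.94 and 5.93 at 10 min, against 6.57, 6.41, 6.11, 6.53 and 6.11 in control replicates 1 to 5. Here control replicate 2 lay among the other controls, above every 10 min array. Of 11 cytosolic aminoacyl-tRNA synthetase genes 5 fell and 0 rose (median -0.26; 6 and 0 without control replicate 2), against 1 lower and 2 higher of 10 mitochondrial ones (median -0.00; 1 and 3 without it). Against control replicate 1 alone the cytosolic list had 8 lower and a median of -0.67. Aars (-0.82 ± 0.14, adjusted p = 0.000699), Cars (-1.10 ± 0.24, adjusted p = 0.00489), Gars (-0.55 ± 0.11, adjusted p = 0.00265) and Tars (-0.52 ± 0.11, adjusted p = 0.00465), which load alanine, cysteine, glycine and threonine, fell, and Fars2, a mitochondrial phenylalanine synthetase gene, rose (0.51 ± 0.11, adjusted p = 0.00425), though it did not pass against control replicate 1 alone (0.31 ± 0.12, adjusted p = 0.0844). A second Tars probe differed by -0.22.

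The promoters of 4 of these genes are shown because each holds an ATF4 element, the short site that ATF4 is known to bind with C/EBP partners (letters TGATGNAAN, both strands). They run from 250 bases before to 50 bases after the start of the gene on its own strand, from RefSeq on GRCm38.p6, with the matches in capitals. Asns lies at chr6:7693160-7693459, minus strand, Chac1 at chr2:119350992-119351291, plus strand, Nupr1 at chr7:126625421-126625720, minus strand, and Aars at chr8:111033592-111033891, plus strand.
Asns: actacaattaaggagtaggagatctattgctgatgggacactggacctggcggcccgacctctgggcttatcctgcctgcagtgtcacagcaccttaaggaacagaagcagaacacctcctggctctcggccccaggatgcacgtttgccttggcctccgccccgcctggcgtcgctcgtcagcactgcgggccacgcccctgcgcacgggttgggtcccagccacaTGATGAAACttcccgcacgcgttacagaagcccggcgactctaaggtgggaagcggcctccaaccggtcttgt
Chac1: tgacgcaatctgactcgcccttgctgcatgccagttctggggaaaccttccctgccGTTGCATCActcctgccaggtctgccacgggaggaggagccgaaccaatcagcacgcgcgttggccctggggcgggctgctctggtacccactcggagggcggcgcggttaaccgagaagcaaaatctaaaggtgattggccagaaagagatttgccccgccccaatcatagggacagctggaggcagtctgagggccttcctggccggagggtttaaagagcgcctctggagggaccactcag
Nupr1: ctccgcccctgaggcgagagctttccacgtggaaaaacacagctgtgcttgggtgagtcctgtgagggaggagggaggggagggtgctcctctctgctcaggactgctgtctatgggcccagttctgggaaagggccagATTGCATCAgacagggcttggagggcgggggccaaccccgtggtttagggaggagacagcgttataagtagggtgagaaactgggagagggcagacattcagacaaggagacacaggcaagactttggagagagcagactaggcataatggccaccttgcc
Aars: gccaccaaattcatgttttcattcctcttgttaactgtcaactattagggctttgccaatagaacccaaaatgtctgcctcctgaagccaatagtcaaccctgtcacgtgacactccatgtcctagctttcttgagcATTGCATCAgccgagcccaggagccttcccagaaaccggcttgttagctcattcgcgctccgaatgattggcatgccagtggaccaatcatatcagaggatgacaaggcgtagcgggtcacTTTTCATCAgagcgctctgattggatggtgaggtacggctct
The match begins 23 bases before the start in Asns, 194 in Chac1 and 111 in Nupr1, and Aars has one 113 bases before and another 8 bases after the start. Of the 59 tested genes of the 4 amino acid lists, 48 had a promoter in the table and 9 of them (18.8%) held the element, against 135 of 6321 (2.14%) for all genes tested and 4.04% of the 27025 promoters of the table. All 9 (Asns, Chac1, Nupr1, Trib3, Aars, Gars, Tars, Slc1a4 and Slc7a11) passed the test and were lower at 10 min. The 4 lists were chosen as genes of the ATF4 response with earlier results of these data known, so these counts cannot test a link to the element. Among all 135 tested genes with the element, the 9 included, 25 were lower and 13 higher. Over all 7721 named genes, with or without a promoter in the table, 745 were lower and 927 higher. Since the 9 are among the 25, this comparison cannot test a link to the element either. A match describes these letters only and does not show binding.

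Sterol synthesis genes were lower at 10 min, with control replicate 2 again beside the 10 min arrays. Of 14 enzymes 11 fell and 0 rose (median -0.62; 12 lower and a median of -0.72 without control replicate 2), and of 5 regulators and uptake genes 2 fell. The median position of control replicate 2 over the 13 called members was 0.89. Hmgcs1 makes hydroxymethylglutaryl-CoA at the head of the pathway, and Fdps makes farnesyl diphosphate in its middle. Hmgcs1 read 13.69, 13.75 and 13.71 on the arrays at 10 min and 14.25, 13.88, 14.40, 14.15 and 14.25 on controls 1 to 5. Levels of Fdps were 11.56, 11.58 and 11.42 at 10 min and 12.31, 11.64, 13.04, 12.42 and 12.71 in controls 1 to 5. The 10 min arrays lay below all controls, but by only 0.13 and 0.06 from replicate 2. The difference of Hmgcs1 was -0.47 ± 0.10 (SE, adjusted p = 0.00304), and -0.54 ± 0.08 without control replicate 2 (adjusted p = 5.09e-05). Fdps thus differed by -0.91 ± 0.19 (adjusted p = 0.00298), or by -1.10 ± 0.12 without control replicate 2 (adjusted p = 2.66e-06). Lss, lanosterol synthase (-0.86 ± 0.18, adjusted p = 0.00329), Nsdhl (-0.89 ± 0.19, adjusted p = 0.00416, with its other probes at -0.66 and -0.46) and Dhcr7 (-0.67 ± 0.15, adjusted p = 0.00479), enzymes of the later steps, fell. Insig1 stood at 5.0, 4.99 and 5.21 after 10 min of OGD, against 5.85, 5.14, 6.19, 5.74 and 6.15 in controls 1 to 5. Insig1, which holds the SREBP escort protein in the endoplasmic reticulum, was detected on 4 controls and on no 10 min array and lay lower by at least 1.34-fold (adjusted p = 0.0104, and 0.000141 without control replicate 2). Each sterol gene named here with a value also passed against control replicate 1 alone (adjusted p = 0.000217 to 0.0212), where 7 of the 14 enzymes were lower and 0 higher. Of 10 fatty acid synthesis genes 3 fell (median -0.17; 5 fell without control replicate 2): Acss2, which makes acetyl-CoA from acetate (-1.17 ± 0.23, adjusted p = 0.002), Scd1, a desaturase gene (-0.68 ± 0.16, adjusted p = 0.00615), and Acly, which makes acetyl-CoA from citrate (-0.40 ± 0.10, adjusted p = 0.0109, and -0.21 ± 0.14, adjusted p = 0.327 against control replicate 1 alone).

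The promoter of Hmgcs1 (RefSeq, GRCm38.p6, chr13:119690101-119690400, plus strand) is shown as the one sterol gene with a match to the sterol response element (letters TCACNCCAC, both strands, in capitals), and that of Scg2 (chr1:79439977-79440276, minus strand) as a fallen activity gene with the cyclic AMP response element (letters TGACGTCA, in capitals).
Hmgcs1: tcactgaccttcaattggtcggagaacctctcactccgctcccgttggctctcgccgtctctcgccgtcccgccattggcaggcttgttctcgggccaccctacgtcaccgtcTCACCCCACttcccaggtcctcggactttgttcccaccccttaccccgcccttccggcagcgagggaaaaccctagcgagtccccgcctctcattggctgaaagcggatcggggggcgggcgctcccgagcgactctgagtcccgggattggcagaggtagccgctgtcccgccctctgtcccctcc
Scg2: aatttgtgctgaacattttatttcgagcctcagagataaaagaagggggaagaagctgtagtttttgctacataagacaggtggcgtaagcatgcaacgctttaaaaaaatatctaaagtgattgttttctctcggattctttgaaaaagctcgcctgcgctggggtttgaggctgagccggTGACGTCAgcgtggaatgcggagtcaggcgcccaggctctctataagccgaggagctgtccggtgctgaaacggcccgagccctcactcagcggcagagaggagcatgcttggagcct
The matches begin 137 and 68 bases before the start. The sterol element was in 1 of the 16 sterol promoters that the table holds, against 1.11% of all genes tested. The cyclic AMP element was in 2 of 8 effector promoters and in 0 of the 7 AP-1 promoters, against 3.4% of all genes tested. For the CArG box, the site of serum response factor, 0 of the AP-1 promoters held a match, against 1.42% of all genes tested. Only exact matches were counted, in the same short stretch around the start as for the ATF4 element. Sites farther from the start or with other letters were not searched. A count of 0 therefore does not show that these genes lack the site.

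**Figure D4:**
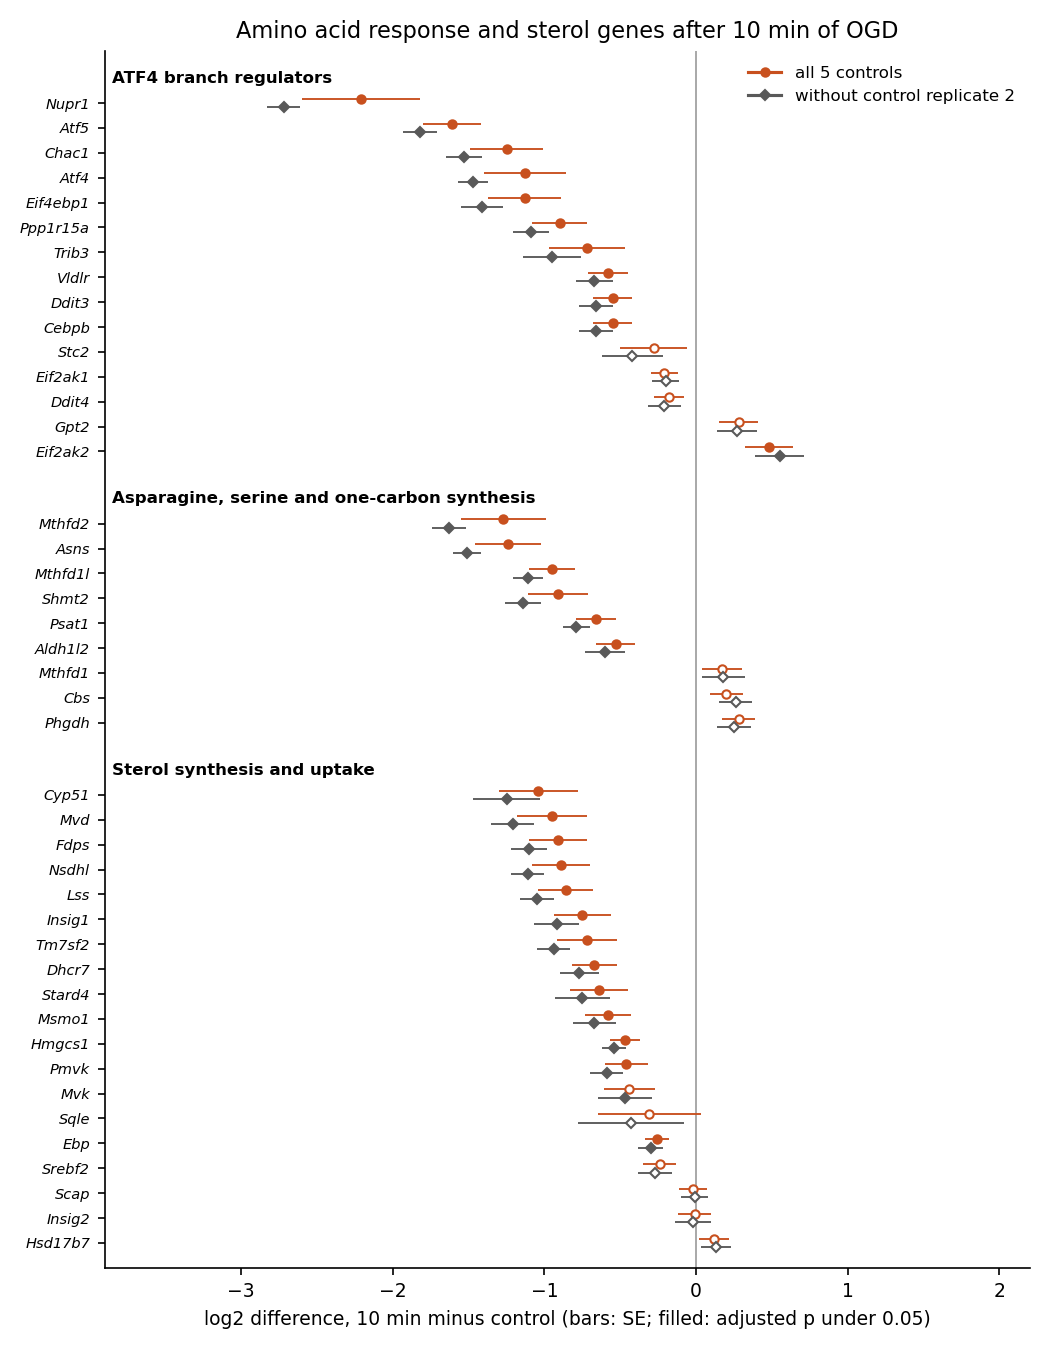
Log2 difference of 10 min minus control for the tested ATF4 branch, asparagine, serine and one-carbon, and sterol genes, with all 5 controls (circles) and without control replicate 2 (diamonds). Bars are SE and filled symbols passed at an adjusted p under 0.05. Most members lie left of 0 on both choices, and Nupr1, Trib3 and Insig1 were detected on no 10 min array, so that their drawn differences are no measure of size.

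Genes of ketone body use, lipid droplets and fatty acid oxidation were tested in 21 cases, of which 9 rose and 1 fell (median 0.27; 10 and 1 with a median of 0.36 without control replicate 2). Beside Bdh2 and Plin4, Acadvl, a fatty acid dehydrogenase gene (0.81 ± 0.17, adjusted p = 0.00328, and 0.45 ± 0.17, adjusted p = 0.0791 against control replicate 1 alone), and Plin3, a second lipid droplet coat gene (1.1 ± 0.23, adjusted p = 0.00341), rose, and Dgat2, which makes triglycerides, fell (-0.64 ± 0.10, adjusted p = 0.000635). Plin3 was detected on 3 controls. Of 22 glutathione genes 9 rose and 2 fell (median 0.24; 11 and 2 with a median of 0.35 without control replicate 2). Gstm1 had levels of 12.16, 12.16 and 12.36 at 10 min, against 11.46, 11.85, 10.74, 11.50 and 10.94 in control replicates 1 to 5. Gstt1 read 6.19, 6.16 and 6.24 on the arrays at 10 min and 5.33, 5.74, 4.98, 5.07 and 4.90 on controls 1 to 5. The 10 min arrays lay above all controls in both of these transferase genes. For Gstm1 this gave 0.93 ± 0.17 (adjusted p = 0.00144) with all controls and 1.07 ± 0.14 (adjusted p = 1.84e-05) without replicate 2. The difference of Gstt1 was 1.0 ± 0.15 (SE, adjusted p = 0.000423), and 1.13 ± 0.12 without control replicate 2 (adjusted p = 1.73e-06). Gstt1 was detected on 1 control. Gstm6 (0.94 ± 0.17, adjusted p = 0.00153) and Gstm5 (0.36 ± 0.09, adjusted p = 0.00774) rose as well. The genes of this family are close copies, and probes may read more than 1 of them.

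Antioxidant genes under NRF2 moved in both directions, since of 14 tested 3 fell and 1 rose (median 0.07; 3 lower and 5 higher without control replicate 2). Hmox1, heme oxygenase, fell. Levels of Hmox1 were 9.72, 9.65 and 9.78 at 10 min and 11.60, 10.70, 10.53, 11.68 and 10.73 in controls 1 to 5. Among the controls it was high in replicates 1 and 4 and lower in the other 3, and every 10 min array lay below them all. Hmox1 thus differed by -1.33 ± 0.21 (adjusted p = 0.000423), or by -1.42 ± 0.21 without control replicate 2 (adjusted p = 4.16e-05). Osgin1 (-0.59 ± 0.20, adjusted p = 0.0456) and the autophagy receptor gene Sqstm1 (-0.45 ± 0.14, adjusted p = 0.0309, and -0.09 ± 0.21, adjusted p = 0.797 against control replicate 1 alone) fell, and Ephx1, an epoxide hydrolase gene, rose (0.92 ± 0.24, adjusted p = 0.0127). Nqo1, a quinone reductase gene, passed only without control replicate 2. Nqo1 stood at 6.50, 6.26 and 5.76 after 10 min of OGD, against 4.83, 6.62, 4.85, 5.52 and 4.98 in controls 1 to 5. For Nqo1 this gave 0.81 ± 0.29 (adjusted p = 0.0527) with all controls and 1.13 ± 0.18 (adjusted p = 0.000121) without replicate 2. Metallothionein genes bind zinc and copper. Mt1 (0.59 ± 0.17, adjusted p = 0.02) and Mt3 (0.61 ± 0.13, adjusted p = 0.00422) rose, Mt2 passed only without control replicate 2 (at 0.83 ± 0.18, adjusted p = 0.00145 without that array and 0.108 with all controls), and Slc30a1, a zinc exporter gene, fell (-0.43 ± 0.12, adjusted p = 0.0141). Mt2 did not pass against control replicate 1 alone (0.45 ± 0.25, adjusted p = 0.232).

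Targets of the oxygen sensor HIF moved in both directions. Of 15 targets outside glycolysis 3 rose and 3 fell (median 0.17; 5 and 3 without control replicate 2). Vegfa, the vascular growth factor, fell, and Bnip3l, a mitophagy receptor, rose. Vegfa had levels of 8.96, 9.08 and 8.98 at 10 min, against 9.62, 9.38, 9.80, 9.62 and 9.62 in control replicates 1 to 5. Bnip3l read 10.67, 10.49 and 10.43 on the arrays at 10 min and 9.66, 10.17, 10.08, 9.91 and 10.16 on controls 1 to 5. Neither gene's groups overlapped, and both passed against control replicate 1 alone (adjusted p = 0.0355 and 0.00124). The difference of Vegfa was -0.60 ± 0.12 (SE, adjusted p = 0.00284), and -0.66 ± 0.12 without control replicate 2 (adjusted p = 0.000405). Bnip3l thus differed by 0.54 ± 0.12 (adjusted p = 0.00402), or by 0.58 ± 0.12 without control replicate 2 (adjusted p = 0.000831). Egln3, an oxygen-dependent prolyl hydroxylase gene (0.42 ± 0.11, adjusted p = 0.0123), and Bhlhe40, a clock and hypoxia repressor gene (0.50 ± 0.13, adjusted p = 0.0137), rose, though neither passed against control replicate 1 alone (Egln3 0.38 ± 0.18, adjusted p = 0.149, and Bhlhe40 0.38 ± 0.13, adjusted p = 0.054). Adm, adrenomedullin, was detected on 2 controls and on no 10 min array (adjusted p = 0.00533, and 0.00255 without control replicate 2, and 0.154 against control replicate 1 alone). Of 24 genes of glucose transport, glycolysis and pyruvate 4 rose and 2 fell (median 0.01; 6 and 4 without control replicate 2). Pdk2 (0.63 ± 0.13, adjusted p = 0.00301) and Pdk1 (0.48 ± 0.13, adjusted p = 0.0148), kinases that close pyruvate dehydrogenase, and Ldhb, a lactate dehydrogenase gene (0.35 ± 0.10, adjusted p = 0.0173), rose. Pdk2 was detected on 2 controls. Hk2, a hexokinase gene (-1.05 ± 0.26, adjusted p = 0.00934), and Slc2a3, the neuronal glucose carrier (-0.44 ± 0.11, adjusted p = 0.0085), fell. Hk2 (-0.81 ± 0.27, adjusted p = 0.051) and Slc2a3 (-0.22 ± 0.15, adjusted p = 0.351) were nearer to 0 and did not pass against control replicate 1 alone, and Pdk1 did not pass there at a larger difference (0.59 ± 0.21, adjusted p = 0.0585). Slc2a1, the glucose carrier of glia and endothelium, passed only without control replicate 2. Levels of Slc2a1 were 8.87, 8.95 and 8.89 at 10 min and 8.95, 8.77, 8.04, 8.61 and 7.89 in controls 1 to 5. Control replicate 1, on the same slide, was level with the highest 10 min array, and the gene did not pass against it alone (adjusted p = 0.85). For Slc2a1 this gave 0.45 ± 0.18 (adjusted p = 0.0723) with all controls and 0.53 ± 0.17 (adjusted p = 0.0244) without replicate 2.

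Few genes of oxidative metabolism passed. Of 66 respiratory chain and ATP synthase genes 7 rose and 2 fell (median 0.03; 9 and 3 without control replicate 2), and of 14 citric acid cycle genes 1 rose (median 0.03; 2 without control replicate 2). Ndufb7 (0.66 ± 0.11, adjusted p = 0.000896), Ndufs7 (0.32 ± 0.09, adjusted p = 0.0188) and Sdhb (0.31 ± 0.09, adjusted p = 0.0202), subunits of complexes I and II, and Idh2, a mitochondrial isocitrate dehydrogenase gene (0.62 ± 0.16, adjusted p = 0.0112), rose. Ndufs7 (0.13 ± 0.13, adjusted p = 0.515) and Idh2 (0.44 ± 0.21, adjusted p = 0.164) did not pass against control replicate 1 alone. Of 17 folding genes of the endoplasmic reticulum 6 fell and 0 rose (median -0.18; 8 and 1 without control replicate 2). Hspa5 stood at 6.12, 6.15 and 6.37 after 10 min of OGD, against 6.69, 6.67, 7.33, 7.02 and 6.96 in controls 1 to 5. Hspa5, the chaperone BiP, was below all controls on every 10 min array, and its lowest controls were replicates 1 and 2. The difference of Hspa5 was -0.72 ± 0.15 (SE, adjusted p = 0.00282), and -0.79 ± 0.15 without control replicate 2 (adjusted p = 0.000413). It did not pass against control replicate 1 alone (-0.48 ± 0.20, adjusted p = 0.107). Sec61a1, the translocon channel (-0.48 ± 0.09, adjusted p = 0.002), and P4hb, a disulfide isomerase gene (-0.34 ± 0.10, adjusted p = 0.0262), fell. Hyou1 was detected on 1 of 3 arrays at 10 min and on all 5 controls (adjusted p = 0.013, and 0.00508 without control replicate 2, and 0.247 against control replicate 1 alone). Among 18 heat shock protein genes 4 fell and 1, Cryab, rose (median -0.02; 5 and 2 without control replicate 2). Hsph1 (-0.42 ± 0.08, adjusted p = 0.00276) and Hspa4 (-0.62 ± 0.17, adjusted p = 0.0172), cytosolic chaperones, Stip1, a co-chaperone gene (-0.40 ± 0.11, adjusted p = 0.0151), and Hspd1, the mitochondrial chaperonin (-0.34 ± 0.11, adjusted p = 0.0293), fell. Stip1 (-0.33 ± 0.13, adjusted p = 0.0925) and Hspd1 (-0.11 ± 0.13, adjusted p = 0.599) did not pass against control replicate 1 alone.

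With all 5 controls, the genes of the neuronal cytoskeleton and of synapses that passed were lower at 10 min. Of 29 genes of the neuronal cytoskeleton, growth cone and motors 6 fell and 0 rose (median -0.25; 10 and 1 without control replicate 2), and control replicate 2 lay at a median position of 0.98 on the 6. Elavl3, a neuronal RNA-binding protein gene, and Mapt, tau, fell. Elavl3 had levels of 10.40, 10.44 and 10.22 at 10 min, against 11.42, 10.52, 11.19, 11.29 and 11.31 in control replicates 1 to 5. Mapt read 12.95, 13.10 and 12.95 on the arrays at 10 min and 13.72, 12.99, 13.52, 13.56 and 13.56 on controls 1 to 5. Control replicate 2 was within 0.12 of a 10 min array in both genes. Elavl3 thus differed by -0.79 ± 0.17 (adjusted p = 0.00349), or by -0.95 ± 0.13 without control replicate 2 (adjusted p = 1.62e-05). For Mapt this gave -0.47 ± 0.14 (adjusted p = 0.0216) with all controls and -0.59 ± 0.11 (adjusted p = 0.000382) without replicate 2. The other probe of Mapt differed by -0.20. Levels of Tubb3 were 7.55, 7.48 and 7.45 at 10 min and 7.82, 7.66, 8.01, 7.96 and 8.07 in controls 1 to 5. Tubb3, neuronal tubulin, fell with a difference of -0.41 ± 0.10 (adjusted p = 0.0105), but did not pass against control replicate 1 alone (-0.33 ± 0.15, adjusted p = 0.139). Of 26 presynaptic genes 5 fell and 0 rose (median -0.06; 5 and 1 without control replicate 2). Against control replicate 1 alone 3 fell and 3 rose, with a median of 0.02. Sv2a, a vesicle protein gene (-0.59 ± 0.15, adjusted p = 0.00869, with its other probe at -0.21), Cplx1, complexin (-0.38 ± 0.11, adjusted p = 0.0192), Slc17a7, the vesicular glutamate carrier (-0.52 ± 0.17, adjusted p = 0.0335), and Syn2, a synapsin gene (-0.51 ± 0.18, adjusted p = 0.0474), fell. Of 17 glutamate receptor and scaffold genes 4 fell and 0 rose (median -0.16; 5 and 1 without control replicate 2), and 4 fell and 1 rose against control replicate 1 alone (median 0.00). The shares of these neuronal lists that passed in either direction are near the 20.4% of all probes tested. Gria1 stood at 8.66, 8.73 and 8.56 after 10 min of OGD, against 9.67, 8.90, 9.71, 9.48 and 9.51 in controls 1 to 5. Gria1 encodes an AMPA receptor subunit. The difference of Gria1 was -0.80 ± 0.20 (SE, adjusted p = 0.00943), and -0.94 ± 0.18 without control replicate 2 (adjusted p = 0.000571). Camk2a, the calcium-dependent kinase (-0.67 ± 0.15, adjusted p = 0.00465), Shank3 (-0.42 ± 0.11, adjusted p = 0.0137) and Grik1 (-0.41 ± 0.12, adjusted p = 0.0238) fell. Slc17a7 (-0.40 ± 0.25, adjusted p = 0.298) and Shank3 (-0.32 ± 0.15, adjusted p = 0.155) did not pass against control replicate 1 alone, nor did Syn2 at a larger difference (-0.75 ± 0.30, adjusted p = 0.09). 

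Of 19 transcription factors of cortical projection neurons 5 fell and 0 rose (median -0.19; 7 and 2 without control replicate 2). Neurod2 had levels of 10.11, 10.01 and 9.86 at 10 min, against 10.67, 10.31, 10.90, 10.76 and 10.77 in control replicates 1 to 5. Bcl11b read 10.18, 10.14 and 10.02 on the arrays at 10 min and 10.91, 10.13, 10.72, 10.77 and 10.78 on controls 1 to 5. Neurod2, a factor of excitatory neurons, was below all controls on each 10 min array, and Bcl11b, a factor of deep-layer neurons, overlapped with control replicate 2. Neurod2 thus differed by -0.69 ± 0.11 (adjusted p = 0.000489), or by -0.78 ± 0.09 without control replicate 2 (adjusted p = 2.17e-06). For Bcl11b this gave -0.55 ± 0.13 (adjusted p = 0.00864) with all controls and -0.69 ± 0.10 (adjusted p = 2.43e-05) without replicate 2. Markers of interneurons and neuropeptides were higher in 4 of 12 and lower in 1 (median 0.18; 5 and 1 without control replicate 2). Levels of Sst were 12.10, 11.87 and 12.09 at 10 min and 11.37, 11.86, 11.12, 11.28 and 11.21 in controls 1 to 5. Npy stood at 11.01, 11.06 and 11.13 after 10 min of OGD, against 10.25, 10.87, 10.52, 10.60 and 10.58 in controls 1 to 5. Somatostatin and neuropeptide Y lay above all controls on the 10 min arrays, and replicate 2 was the highest control for both, for Sst only 0.01 below the lowest 10 min array. The difference of Sst was 0.65 ± 0.13 (SE, adjusted p = 0.00264), and 0.77 ± 0.10 without control replicate 2 (adjusted p = 8.8e-06). Npy thus differed by 0.50 ± 0.10 (adjusted p = 0.0032), or by 0.58 ± 0.09 without control replicate 2 (adjusted p = 9.23e-05). Cort, cortistatin, rose (0.69 ± 0.15, adjusted p = 0.00506), and Reln, reelin, fell (-0.37 ± 0.10, adjusted p = 0.0116), though it did not pass against control replicate 1 alone (-0.20 ± 0.15, adjusted p = 0.388). Of 35 axon guidance genes 7 rose and 7 fell (median 0.04; 9 and 7 without control replicate 2). Nrp1, a semaphorin receptor gene (-0.99 ± 0.16, adjusted p = 0.000512), and Plxna2, its plexin partner (-0.49 ± 0.08, adjusted p = 0.000867), fell, and Ephb4 (0.56 ± 0.11, adjusted p = 0.00237) rose. Ephb4 was detected on 2 controls. Of 19 voltage-gated and leak channel genes 3 rose and 2 fell (median -0.08; 3 and 3 without control replicate 2). Kcnk2, a mechanosensitive leak potassium channel gene, rose (1.0 ± 0.17, adjusted p = 0.000789), and Kcnk3, an acid-sensitive one, was detected on 4 controls and on no 10 min array and lay lower by at least 1.11-fold (adjusted p = 0.00511, and 4.68e-06 without control replicate 2). Among 13 calcium sensor genes 4 rose and 2 fell (median -0.17, but 0.12 against control replicate 1 alone; 4 and 4 without control replicate 2), with Necab1 higher (1.01 ± 0.25, adjusted p = 0.00929) and Cabp1 lower (-0.90 ± 0.19, adjusted p = 0.00401).

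Astrocyte and microglial genes that passed were higher at 10 min. Of 20 astrocyte genes 11 rose and 0 fell (median 0.52), and without control replicate 2 the counts were 13 and 2 (median 0.57). Against control replicate 1 alone, on the same slide, the median was smaller, at 0.35. Clu had levels of 12.01, 11.82 and 12.05 at 10 min, against 11.30, 11.44, 10.83, 11.15 and 10.82 in control replicates 1 to 5. Gfap read 6.51, 6.27 and 6.53 on the arrays at 10 min and 5.62, 6.0, 5.52, 5.52 and 5.60 on controls 1 to 5. Clusterin and the intermediate filament gene Gfap were above all 5 controls on every 10 min array, and control replicate 2 was the highest control. For Clu this gave 0.85 ± 0.13 (adjusted p = 0.000339) with all controls and 0.93 ± 0.11 (adjusted p = 6.31e-06) without replicate 2. The difference of Gfap was 0.79 ± 0.13 (SE, adjusted p = 0.000635), and 0.87 ± 0.12 without control replicate 2 (adjusted p = 1.68e-05). Apoe, the lipid carrier (0.84 ± 0.13, adjusted p = 0.000562), Glul, glutamine synthetase (0.85 ± 0.18, adjusted p = 0.0029), and Gjb6, a gap junction gene detected on 2 controls (1.13 ± 0.22, adjusted p = 0.00192), rose. The summed signal of 6 astrocyte markers on the array was 17181 to 18984 at 10 min and 10249 to 16849 in the controls. That of 7 neuronal markers was 10693 to 11701 at 10 min and 9531 to 12074 in the controls, so that the neuronal sums overlapped and the astrocyte sums did not. The astrocyte sum was mostly Gja1 and Slc1a3, and in both control replicate 2 was close to the 10 min arrays. Gja1 stood at 13.04 to 13.23 at 10 min, 13.03 on control replicate 2 and 11.78 to 12.70 on the other controls. For Slc1a3 these levels were 12.94 to 13.04, 12.93 and 12.61 to 12.87. Of 10 microglia and macrophage genes 5 rose and 0 fell (median 0.43; 6 without control replicate 2). Fcgr3, an antibody receptor gene (0.66 ± 0.13, adjusted p = 0.00273), and Adgre1, a macrophage adhesion receptor gene (0.45 ± 0.12, adjusted p = 0.0118), rose. Laptm5 (0.41 ± 0.11, adjusted p = 0.0143) and Lgals3, a galectin gene (0.71 ± 0.19, adjusted p = 0.0121), rose but did not pass against control replicate 1 alone (Laptm5 0.35 ± 0.18, adjusted p = 0.182, and Lgals3 0.39 ± 0.23, adjusted p = 0.272). Trem2 was detected on 1 array at 10 min and on no control and lay higher by at least 1.03-fold (adjusted p = 0.0129, and 0.00966 without control replicate 2, and 0.132 against control replicate 1 alone). The defining markers Itgam, Aif1 and Cx3cr1 were detected on none of the 8 arrays, and the summed signal of 8 markers was 278 to 333 at 10 min and 228 to 257 in the controls. The part of cell makeup in the results was not tested.

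Of 9 genes of the oligodendrocyte lineage 3 fell and 0 rose (median -0.24; the same counts without control replicate 2). Cldn11, a tight junction protein of myelin, fell. Levels of Cldn11 were 5.25, 5.61 and 5.57 at 10 min and 7.33, 5.58, 7.50, 7.59 and 7.47 in controls 1 to 5. Control replicate 2 lay among the 10 min arrays. Cldn11 thus differed by -1.62 ± 0.30 (adjusted p = 0.00147), or by -2.0 ± 0.11 without control replicate 2 (adjusted p = 1.83e-10). Mbp, a myelin protein, fell (-0.49 ± 0.10, adjusted p = 0.00206), and Ugt8a was at least 1.25-fold lower (adjusted p = 0.00729, and 2.73e-06 without control replicate 2), detected on 4 controls and on no 10 min array. Of 18 progenitor, Notch and Id genes 4 rose and 1 fell (median 0.15; 7 and 2 without control replicate 2). Prom1 stood at 10.70, 10.71 and 10.85 after 10 min of OGD, against 9.82, 10.39, 9.44, 9.89 and 9.62 in controls 1 to 5. Id4 had levels of 8.72, 8.79 and 9.11 at 10 min, against 8.16, 8.16, 8.08, 8.35 and 7.99 in control replicates 1 to 5. Prominin and the inhibitor Id4 were higher on every 10 min array than on any control, and replicate 2 was among the other controls in Id4. For Prom1 this gave 0.92 ± 0.16 (adjusted p = 0.0012) with all controls and 1.05 ± 0.14 (adjusted p = 1.09e-05) without replicate 2. The difference of Id4 was 0.72 ± 0.12 (SE, adjusted p = 0.000754), and 0.73 ± 0.13 without control replicate 2 (adjusted p = 0.000252). The summed signal of 8 mural and fibroblast markers was 2323 to 2656 at 10 min and 1515 to 1630 in the controls. At 10 min that sum was mostly Acta2, at 10.85 to 11.11 in log2, against 7.67 to 8.08 for Dcn, which fell, and 6.61 to 7.02 for Pdgfrb. The other 5 markers were detected on no array. The summed signal of 5 oligodendrocyte markers was 8929 to 9403 at 10 min and 8912 to 11483 in the controls. Of 4 smooth muscle and mural genes tested 3 rose (4 without control replicate 2), Acta2, Cnn2, a calponin gene (0.74 ± 0.16, adjusted p = 0.00463), and Pdgfrb, a growth factor receptor gene (0.60 ± 0.17, adjusted p = 0.0196, and 0.42 ± 0.18, adjusted p = 0.122 against control replicate 1 alone). The fibroblast and mural markers Tagln, Lum, Col1a1, Col1a2 and Col3a1 were detected on none of the 8 arrays, and the matrix proteoglycan genes moved apart, with Prelp higher and Dcn lower. Prelp read 9.26, 9.22 and 9.38 on the arrays at 10 min and 7.65, 8.85, 7.49, 7.43 and 7.17 on controls 1 to 5. Levels of Dcn were 7.99, 8.08 and 7.67 at 10 min and 9.63, 8.08, 9.86, 9.72 and 9.80 in controls 1 to 5. Control replicate 2 lay on the side of the 10 min arrays in both.

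Among secreted and surface genes, 7 of 25 growth factor and receptor genes rose and 2 fell (median 0.01; 9 and 3 without control replicate 2). Igfbp7 stood at 8.82, 8.75 and 9.02 after 10 min of OGD, against 7.98, 8.29, 7.73, 7.95 and 7.64 in controls 1 to 5. Igfbp5 had levels of 11.95, 11.90 and 11.87 at 10 min, against 11.45, 11.43, 11.01, 11.34 and 11.12 in control replicates 1 to 5. Igfbp7 and Igfbp5, secreted binders of insulin-like growth factors, were above all controls, and replicate 2 was the highest control for Igfbp7 and lay among the other controls for Igfbp5. Igfbp7 thus differed by 0.95 ± 0.13 (adjusted p = 0.000208), or by 1.04 ± 0.12 without control replicate 2 (adjusted p = 2.54e-06). For Igfbp5 this gave 0.64 ± 0.11 (adjusted p = 0.000702) with all controls and 0.68 ± 0.11 (adjusted p = 8.46e-05) without replicate 2. Igf2 rose (0.56 ± 0.12, adjusted p = 0.00386), Igf1 was detected on 2 arrays at 10 min and on no control and lay higher by at least 1.18-fold (adjusted p = 0.00377, and 0.000194 without control replicate 2), and Pdgfa fell (-0.55 ± 0.11, adjusted p = 0.00235). Of 12 interferon-induced and antigen presentation genes 7 rose and 1 fell (median 0.46; 8 and 1 without control replicate 2), and 2 and 1 against control replicate 1 alone. Ifit2 (0.76 ± 0.20, adjusted p = 0.0124) and Ifitm3 (0.73 ± 0.17, adjusted p = 0.00576), interferon-induced proteins, and Tap2, a peptide transporter gene (0.73 ± 0.20, adjusted p = 0.0145), rose, and Gbp3, a guanylate-binding protein gene, fell (-0.58 ± 0.10, adjusted p = 0.000742). Beside Ccl9, the chemokine gene Ccl4 rose (0.92 ± 0.18, adjusted p = 0.00193). Of 26 lysosome and autophagy genes 7 rose and 2 fell (median 0.19; 11 and 5 without control replicate 2). Ctsz, a cathepsin gene (0.81 ± 0.16, adjusted p = 0.00239), Grn, progranulin (0.64 ± 0.15, adjusted p = 0.00646), and Gaa, acid glucosidase (0.47 ± 0.12, adjusted p = 0.013), rose, and Ulk1, a kinase that starts autophagy, fell (-0.61 ± 0.11, adjusted p = 0.00172). Ifitm3 (0.39 ± 0.17, adjusted p = 0.134), Tap2 (0.50 ± 0.25, adjusted p = 0.184), Grn (0.45 ± 0.16, adjusted p = 0.064) and Gaa (0.37 ± 0.13, adjusted p = 0.0634) did not pass against control replicate 1 alone.

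In cell cycle genes control replicate 2 lay beyond the 10 min arrays. Of 36 tested 6 fell and 2 rose (median -0.10), and without control replicate 2 13 fell and 2 rose (median -0.20). The mean of the list lay at -0.29, -0.31 and -0.27 from the mean of the other 4 controls on the 10 min arrays, and at -0.56 on control replicate 2. Nusap1, a spindle protein gene, and Plk1, a mitotic kinase gene, fell. Nusap1 read 7.46, 7.62 and 7.57 on the arrays at 10 min and 8.52, 7.22, 8.64, 8.72 and 8.61 on controls 1 to 5. Levels of Plk1 were 7.29, 7.19 and 7.31 at 10 min and 8.30, 6.92, 8.22, 8.01 and 8.32 in controls 1 to 5. Control replicate 2 was the lowest array for both. The difference of Nusap1 was -0.79 ± 0.23 (SE, adjusted p = 0.0202), and -1.07 ± 0.10 without control replicate 2 (adjusted p = 2.33e-07). Plk1 thus differed by -0.69 ± 0.21 (adjusted p = 0.0281), or by -0.95 ± 0.10 without control replicate 2 (adjusted p = 1.03e-06). Ccnd1, cyclin D1, rose (0.66 ± 0.15, adjusted p = 0.00486), and its other probes differed by 0.64 and 0.63. Mad2l1 passed only without control replicate 2 (-0.91 ± 0.15, adjusted p = 0.00016 without that array and 0.0989 with all controls). The same held for Ezh2, a chromatin enzyme gene (-0.90 ± 0.31, adjusted p = 0.0327 without that array and 0.159 with all controls). Ezh2 did not pass against control replicate 1 alone (-0.92 ± 0.52, adjusted p = 0.235). The counts of histone genes also depended on that array. Of 31 genes 3 rose and 0 fell with all controls (median -0.25), and 7 rose and 9 fell without it (median -0.15). With all controls the share called among cell cycle genes is near the 20.4% of all probes tested, and that of histone genes lies below it. Without control replicate 2 the shares of both lists lie above the 33.8% of all probes. H4c8 and H4c11, copies of the H4 gene, passed only without control replicate 2, which was the highest array in each. H4c8 stood at 9.53, 9.07 and 8.56 after 10 min of OGD, against 7.76, 9.65, 7.54, 8.21 and 7.32 in controls 1 to 5. H4c11 had levels of 8.0, 8.08 and 7.93 at 10 min, against 7.53, 8.31, 6.59, 7.23 and 6.53 in control replicates 1 to 5. For H4c8 this gave 0.95 ± 0.35 (adjusted p = 0.06) with all controls and 1.34 ± 0.21 (adjusted p = 0.000106) without replicate 2. The difference of H4c11 was 0.76 ± 0.27 (SE, adjusted p = 0.0509), and 1.03 ± 0.19 without control replicate 2 (adjusted p = 0.000465). H4c11 did not pass against control replicate 1 alone (0.48 ± 0.20, adjusted p = 0.114). Histone genes are near-identical copies, so that a probe may read several. Of 9 p53 targets 3 fell and 0 rose (median -0.22; 4 and 0 without control replicate 2). Cdkn1a, a cyclin kinase inhibitor gene (-0.78 ± 0.18, adjusted p = 0.00613, and -0.86 ± 0.30, adjusted p = 0.0551 against control replicate 1 alone), Gadd45a (-0.59 ± 0.11, adjusted p = 0.0017) and Trp53inp1 (-0.48 ± 0.12, adjusted p = 0.0101) fell, and of 14 Bcl2 family and caspase genes Bcl2 alone passed with all controls (0.51 ± 0.14, adjusted p = 0.0153), while the other probes of Bcl2 differed by 0.31, 0.58 and -0.26.

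Of 13 clock genes 1 rose and 1 fell (median -0.09; 2 and 4 without control replicate 2). Dbp, a circadian output factor, rose but overlapped. Dbp read 10.21, 9.84 and 10.13 on the arrays at 10 min and 8.45, 10.42, 7.81, 8.07 and 7.63 on controls 1 to 5. Control replicate 2, at 10.42, was the highest of the 8 arrays. Dbp thus differed by 1.58 ± 0.39 (adjusted p = 0.0087), or by 2.07 ± 0.15 without control replicate 2 (adjusted p = 1.64e-08). Nr1d1, a clock repressor, fell with a difference of -0.51 ± 0.18 (adjusted p = 0.0478), its other probes differed by -0.10 and 0.16, and it did not pass against control replicate 1 alone (-0.33 ± 0.24, adjusted p = 0.363).

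In the machinery of protein and RNA turnover most genes did not pass. Of 47 cytosolic ribosomal protein genes 3 rose and 1 fell (median -0.00; 4 and 1 without control replicate 2), and of 67 mitochondrial ones 4 rose and 1 fell (median 0.07; 11 and 2 without it). Of 54 translation factor genes 3 rose and 7 fell (median -0.07; 5 and 12 without control replicate 2), and of 41 proteasome genes 1 rose and 2 fell (median -0.06; 3 and 2 without it). Of 64 chromatin genes 1 rose and 7 fell (median -0.07; 6 and 12 without control replicate 2), and of 51 splicing genes 2 rose and 8 fell (median -0.10; 3 and 12 without it). With all controls the shares called among the splicing and translation factor genes are near the 20.4% of all probes tested, and those of the other 4 lists lie below it. Rpl38 (-0.58 ± 0.14, adjusted p = 0.00699) and the splicing factor gene Srsf2 (-0.48 ± 0.09, adjusted p = 0.00153) fell. Levels of Srsf2 were 11.28, 11.46 and 11.50 at 10 min and 11.82, 11.76, 11.92, 11.96 and 12 in controls 1 to 5. All 3 arrays at 10 min lay below the 5 controls, and replicate 2 lay 0.06 below the next control. Mrpl48, a mitochondrial ribosomal gene, rose (0.36 ± 0.08, adjusted p = 0.00565).

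Some genes passed only once control replicate 2 was left out of the comparison. Among those with the largest rises, Casp1, an inflammatory caspase gene, stood at 0.80 ± 0.14, adjusted p = 0.000215 without that array and 0.0764 with all controls. Cd109, a surface protein gene, stood at 0.90 ± 0.14, adjusted p = 8.8e-05 without that array and 0.0665 with all controls, and Nnmt, a methyltransferase gene, at 0.80 ± 0.17, adjusted p = 0.00111 without that array and 0.24 with all controls. Nnmt stood at 6.78, 6.62 and 6.30 after 10 min of OGD, against 5.53, 7.37, 6.07, 5.43 and 6.05 in controls 1 to 5. The highest array of all was control replicate 2. Slc50a1, a sugar carrier gene, was different. Slc50a1 had levels of 6.64, 6.65 and 6.64 at 10 min, against 6.57, 6.35, 5.30, 6.19 and 5.22 in control replicates 1 to 5. Its controls were spread widely, with replicates 3 and 5 low and replicate 1 beside the 10 min arrays. For Slc50a1 this gave 0.72 ± 0.26 (adjusted p = 0.06) with all controls and 0.82 ± 0.27 (adjusted p = 0.0236) without replicate 2. Among the falls, Birc5, the mitotic protein survivin, stood at -1.04 ± 0.16, adjusted p = 8.93e-05 without that array and 0.0676 with all controls. Rbfox2, a splicing regulator gene, stood at -1.14 ± 0.29, adjusted p = 0.00527 without that array and 0.0652 with all controls, and Neto1, a partner of kainate receptors, at -0.91 ± 0.22, adjusted p = 0.00363 without that array and 0.0592 with all controls. With all controls the other probe of Cd109 differed by 0.04 and that of Rbfox2 by -0.47, against 0.63 and -0.88 for the probes named. Slc50a1 (0.07 ± 0.29, adjusted p = 0.891), Rbfox2 (-0.99 ± 0.47, adjusted p = 0.156) and Neto1 (-0.92 ± 0.34, adjusted p = 0.0764) did not pass against control replicate 1 alone, and neither did Ckap2 (adjusted p = 0.0572). Ckap2 was detected on 4 controls and on no 10 min array and lay lower by at least 1.29-fold (adjusted p = 0.00209 without it and 0.0567 with all controls).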

How the data were processed

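The values are the average bead intensity of 24620 probes on each array and a detection score, both as the authors exported them with BeadStudio 3.1.7, per the submitters' processing notes and the file headers. The authors' processed tables hold each intensity as a ratio to its array's median and then to the median of the controls, as recomputed from their deposited intensities, and served as an alternative only. In the deposited tables the control columns hold another control array than the one their label names, so that columns were found by the array position in the sample description. A further 120 columns of per-array values in the probe profile were not used.

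From the deposited intensities, log2 values were computed with neqc (limma 3.58.1, R 4.3.3, offset 16), which corrects the background with the detection score, read as 1 minus a p-value, and equalizes the distributions of the 20 arrays. The 7 bacterial control probes were left out. A probe was detected on an array at a detection p under 0.01, and probes detected on at least 3 of 20 arrays were tested, 10447 in all. A limma model of the 6 groups over the 20 arrays gave 10 min minus control, with Benjamini-Hochberg adjusted p-values over all tested probes, and was repeated without control replicate 2 and with control replicate 1 as the only control. The number of arrays limits the precision. Where no array of a group detected a probe, the fold is a bound, set against the lowest signal among detected probes on each array.

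Probe names came from the identifiers in the profile, linked by identical values to the platform annotation and by gene number to RefSeq symbols: 20614 probes, 15785 genes and 4006 probes with no name. Of 3375 identifiers that are gene numbers 3310 (98.1%) equalled the annotated one. A list member is represented by its brightest probe. Named were the 20 largest rises and 20 largest falls with no overlap of the groups, the 10 of each that passed only without control replicate 2 and whose 10 min arrays lay outside the other 4 controls, up to 5 members of each of 52 lists with the smallest adjusted p, and 30 genes in every case. The members and lists were chosen with earlier results of these data known. The fit was tested on simulated data. Alternatives were other background corrections and scalings, filters, a stricter threshold, slide or replicate number as a block, array weights, fewer arrays and each array left out.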

Additional observations from a re-analysis of the deposited data

Results flagged for a closer look

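In 51 of the 267 named probes, 1 control array lay apart from the other 4 by a gap of more than 0.71 of the whole range of the 5 controls (Dixon's test at 95%). Chance flags about 1 group in 20, but this count cannot be set against that share, since 20 of the named probes were chosen for passing only without control replicate 2 and most others for their difference from the controls. Control replicate 2 was the array apart in 48 of them, replicate 1 in 2 and replicate 4 in 1. All levels here are log2 signals of that array.

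Control replicate 2 was high for Ccl9 at 6.02, Acta2 at 10.08, Plin4 at 6.47, Gstt3 at 7.14, Prelp at 8.85, Wdr78 at 6.70, Cyp4f14 at 5.35, Cd109 at 7.15, Gpr22 at 7.57, Gstm5 at 11.05, Gfap at 6.0 and Adgre1 at 5.83. It was low for Atf5 at 8.77, Slc7a5 at 10.83, Slc7a3 at 9.68, Asns at 9.62, Nupr1 at 5.01, Chac1 at 8.11, Gars at 11.97, Tars at 7.14, Cars at 7.79, Slc6a9 at 9.11, Slc1a4 at 10.88, Mthfd2 at 8.22, Shmt2 at 6.65, Lss at 7.05, Acss2 at 8.60 and Atf4 at 9.22, which are genes of the amino acid response and of sterol and acetyl-CoA synthesis. It was low for the cell cycle genes Ckap2 at 4.82, Mad2l1 at 4.94, Pbk at 5.12, Nusap1 at 7.22 and Plk1 at 6.92. It was low as well for the chromatin enzyme gene Ezh2 at 7.27 and the p53 target Cdkn1a at 9.96. It was also low for Npas4 at 6.33, C2cd4a at 7.24, Dcn at 8.08, Lor at 8.25, Sv2a at 10.35, Gria1 at 8.90, Elavl3 at 10.52, Mapt at 12.99, Dpysl3 at 12.30, Bcl11b at 10.13, Foxp1 at 7.59, Cux1 at 8.53 and Cldn11 at 5.58. Control replicate 1 was low for Fosl2 at 8.94 and high for Plxna2 at 10.61, and control replicate 4 was high for Scg2 at 9.98. What set these arrays apart was not tested.

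The means of 10 of the 52 gene lists also had 1 control apart, given as the log2 distance from the mean of the 4 controls other than replicate 2. Control replicate 2 was the array for other activity-induced regulators at -0.60, ATF4 branch regulators at -0.82, asparagine, serine and one-carbon synthesis at -0.65, fatty acid synthesis at -0.38, interneuron markers and neuropeptides at 0.29, oligodendrocyte lineage at -0.37, smooth muscle and mural markers at 0.72, cell cycle and DNA replication at -0.56. Control replicate 1 was the array for HIF targets outside glycolysis at -0.08 and voltage-gated channels at 0.11.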

How the results depend on the processing

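With 1 array left out at a time, the number of probes higher at 10 min ranged from 613 to 1854 and lower from 457 to 1678, against 1153 and 981 with all arrays. The counts were 718 higher and 457 lower without 10 min replicate 1, 642 and 469 without replicate 2, 613 and 548 without replicate 3, 1854 and 1678 without control replicate 2, 757 and 615 without control replicate 3, and 750 and 618 without control replicate 5. They were 356 and 226 in a fit of only the 8 arrays, 474 and 316 at an adjusted p under 0.01, and 2305 and 2245 with array weights. With slide as a fixed block they were 564 and 672, and the authors' normalized values gave 1230 and 554. The cause of these shifts was not tested. With the replicate number as a block 336 were higher and 221 lower. Whether the numbers pair the arrays is not known. After removal of group means, same-numbered 10 min and control arrays correlated at -0.321, -0.026 and -0.266, and differently numbered ones at -0.279 to 0.335. These values cannot decide it, since deviations of only 3 arrays from their own mean are tied to each other. Quantile normalization without background correction (1187 and 967), scaling to the percentile 75 (1207 and 933), slide as a random block (778 and 689), no detection filter (944 and 708) and probes detected on all arrays of either group (1127 and 919) stayed within 1.5 times of the main counts. So did the 7 arrays without control replicate 2, a fit chosen after the data were seen (1542 and 1467). Of 52 list medians 18 moved by more than the SD among controls with slide as a fixed block, 18 with control replicate 1 only and 8 with the authors' values. The median of the neuronal calcium sensors reversed in the first 2, at -0.17 with all arrays and 0.12 in each of these. With control replicate 1 only the median of the aminoacyl-tRNA synthetases was -0.51, against -0.20 with all controls, that of the glutamate receptors 0.00 against -0.16 and that of the MAP kinases -0.07 against -0.21. Of 267 named probes 239 passed with all arrays, of which 147 kept their call whichever array was left out and 78 under every alternative. A change of direction was counted only for a probe that passed with all arrays or in the alternative, and 0 probes had one. Against control replicate 1 only 75 lost their call, with slide as a fixed block 118, in the 8 arrays alone 125 and with the replicate block 116. Signals near background limit the falls of Fosb, Pop4 and Nupr1 to bounds.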

Other observations

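Matrix and adhesion genes moved in both directions at 10 min: of 23 collagen, laminin and integrin genes 7 rose and 2 fell (median 0.23; 11 and 2 without control replicate 2, and 2 and 3 against control replicate 1 alone). Itga3, an integrin subunit gene, rose with a difference of 0.53 ± 0.13 (SE, limma adjusted p = 0.0102), and Col26a1, a collagen gene, fell with a difference of -0.51 ± 0.14 (limma adjusted p = 0.0158). Col9a3, another collagen gene, was detected on all 5 controls and on no 10 min array and lay lower by at least 1.28-fold (limma adjusted p = 0.00349).

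Of 12 chemokine, cytokine and NF-kB genes 3 rose and 2 fell (median 0.11; 4 and 2 without control replicate 2). Beside Ccl9 and Ccl4, Csf1, the macrophage growth factor, rose (0.59 ± 0.15, limma adjusted p = 0.0099), but not against control replicate 1 alone (adjusted p = 0.433). The chemokine genes Cxcl14 (-0.45 ± 0.13, limma adjusted p = 0.0169) and Ccl25 (-0.36 ± 0.12, limma adjusted p = 0.0468) fell, though not against control replicate 1 alone (adjusted p = 0.132 and 0.54). Of 14 RGS genes, which switch off G protein signals, 0 rose and 2 fell (median -0.16; 1 and 5 without control replicate 2). Rgs4 fell with a difference of -0.62 ± 0.16 (limma adjusted p = 0.0113) and passed against control replicate 1 alone (adjusted p = 0.00124). Rgs17 fell with a difference of -0.36 ± 0.11 (limma adjusted p = 0.0281) and did not pass against that array alone (adjusted p = 0.125).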
